A study of Mus musculus with 14 samples.

Results

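The genes described here encode the machinery that fills, docks, fuses and recycles synaptic vesicles, measured in sorted retinal cells of CD1 mice with and without a short hairpin against Bcor. They are 38 presynaptic genes chosen by name, of 26161 genes in the count tables, and the RefSeq records of each gene were summed. RNA was sequenced at postnatal day 21 (P21) from wild-type eyes that had been electroporated in vivo on the day of birth with plasmid DNA at 1 µg/µl. The control group received an empty vector with a fluorescent marker (labelled GFP), and the shBCOR group received a plasmid with the hairpin. Fluorescent cells were sorted after propidium iodide exclusion of dead cells, and several sorts were pooled into each sample of 30000 to 70000 cells. Each group had 2 such pools, so all tests measure the spread between pools, which may be technical. Electroporation reaches only part of the retina, and the labels do not say which cell types were fluorescent or how many eyes a pool held.

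At a chemical synapse, a vesicular transporter loads transmitter into vesicles. The vesicle docks at the active zone, is primed by Munc13 and RIM proteins, and fuses when a SNARE complex of a synaptobrevin (Vamp), a syntaxin (Stx) and a SNAP protein zips together under control of synaptotagmin and complexin. The ATPase NSF and its SNAP adaptors then take the complex apart, and dynamin, endophilin, synaptojanin and clathrin adaptors retrieve the membrane. Photoreceptors and bipolar cells release glutamate at ribbon synapses, which use their own set of these proteins beside the common ones, whereas amacrine cells use conventional synapses.

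The shBCOR pools showed an uneven picture across this machinery. Vesicle proteins with high counts, such as synaptophysin and the glutamate transporter Slc17a7, had similar or slightly higher values than in the controls. Rabphilin (Rph3a), complexin 1 (Cplx1), Syt4, Munc13-3 (Unc13c) and Sv2a had lower values in both shBCOR pools. None of these differences passed the test over all genes (edgeR's quasi-likelihood test, Benjamini-Hochberg adjusted p under 0.05). In all, 0 of the 23 members that could be tested passed, where 0.0901% of all 7773 genes tested did (7 genes). With an unadjusted p under 0.05 there were 5 members lower and 1 higher, against 5.09% and 4.19% of all genes tested. By DESeq2, run as an alternative, 4 members were lower and 1 higher of 24 with an adjusted p, against 2.49% and 2.31% of the 8209 genes with one.

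Promoters of 4 of these genes are shown. Sv2a, Cplx1 and Unc13c are among the members with lower values. Slc17a7 was the only member higher at an unadjusted p under 0.05 in edgeR, though other members also had higher values. Windows picked in this way do not show whether a motif goes with a direction. They are the 250 bases before the annotated start in RefSeq's table for build GRCm38.p6, 5′ to 3′, with each match to a searched motif in capitals.
Sv2a, chr3:96180977-96181226, plus strand: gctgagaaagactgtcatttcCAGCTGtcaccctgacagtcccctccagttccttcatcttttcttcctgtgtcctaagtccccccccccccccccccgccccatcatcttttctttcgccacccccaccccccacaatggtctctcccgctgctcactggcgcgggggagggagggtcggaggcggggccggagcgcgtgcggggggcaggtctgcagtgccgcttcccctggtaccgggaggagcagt
Cplx1, chr5:108550028-108550277, minus strand: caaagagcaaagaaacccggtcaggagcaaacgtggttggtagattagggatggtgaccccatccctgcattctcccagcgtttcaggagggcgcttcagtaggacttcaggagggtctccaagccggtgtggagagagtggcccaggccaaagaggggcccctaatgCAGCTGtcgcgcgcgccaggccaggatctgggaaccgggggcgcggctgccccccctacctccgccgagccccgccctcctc
Unc13c, chr9:73969038-73969287, minus strand: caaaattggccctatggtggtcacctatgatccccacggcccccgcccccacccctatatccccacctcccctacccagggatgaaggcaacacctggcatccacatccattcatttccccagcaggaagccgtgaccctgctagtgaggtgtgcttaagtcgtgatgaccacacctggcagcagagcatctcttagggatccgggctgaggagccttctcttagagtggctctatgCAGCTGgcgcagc
Slc17a7, chr7:45163671-45163920, plus strand: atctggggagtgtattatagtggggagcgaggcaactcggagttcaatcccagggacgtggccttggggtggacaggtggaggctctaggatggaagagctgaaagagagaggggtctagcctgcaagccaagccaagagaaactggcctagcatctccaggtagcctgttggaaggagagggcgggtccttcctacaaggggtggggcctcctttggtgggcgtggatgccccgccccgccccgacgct

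The search covered 41 promoters of 30 of the 38 genes, for 4 motifs on both strands. Member promoters on a single chromosome were left out of it, although the set of all promoters kept that chromosome. Syt4 had no window in the search. CAGCTG, an E-box bound by neural bHLH factors that reads the same on both strands, began 229 bases before the start of Sv2a, 82 before that of Cplx1 and 13 before that of Unc13c. It was found in 10 of the 41 member promoters (24.4%) and in 13% of all 32851 promoters of the table. Of the genes holding it, Amph, Cplx2, Rab3a, Stx1a and Syt1 could not be tested for expression, so they have no measured direction. The median GC content was 58.8% in the member windows and 52.4% in all windows, and the shares were not adjusted for it. Rph3a had 3 promoters in the table, and 1 of them held it. Sh3gl2, with a log2 fold change of 0.43, also held it, and the windows of Unc13a and Sv2c, whose values were lower, did not. The Slc17a7 window held none of the 4 motifs. TAATCC, the core recognised by OTX2 and CRX, was in 3 member promoters (7.32%, against 6.25% of all), of the genes Syp and Sv2b. CAGCACC, the left part of the RE1 element, was in 4 (9.76%, against 5.73%), and TGACGTCA, the cyclic AMP response element, in 2 (4.88%, against 1.55%). No window printed above held more than 1 match, so no matches overlapped there. These are matches of letters in short windows, and the motifs were chosen with the expression values known.

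How far a member could be measured depended on its number of RefSeq records. Reads were counted per record. A count in some library was found for 46.4% of the genes with a single record and for 14.3% of the records of genes with several. The first is a share of genes and the second a share of records, so they are not a like-for-like contrast. Among the 38 members, 15 had a single record and 23 had several. The 15 single-record members were all tested and held 93.9 to 94.6% of the members' counts in each library. Of the 23 with several records, 8 were tested, 8 had counts that did not pass the filter on low values, and 7 had no count in any library. Those 7 were Syt2, Syt5, Stx1a, Syn1, Slc17a6, Rab3a and Rims1. A count of 0 in these records says nothing about the level of such a gene, and the levels of all members with several records are uncertain. For a record that is counted in full, 3 counts correspond to 0.556 to 1.03 CPM (counts relative to the scaled library total, on the usual CPM scale) in these libraries, the limit that a count of 0 allows, covering counting error only.

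**Figure D1:**
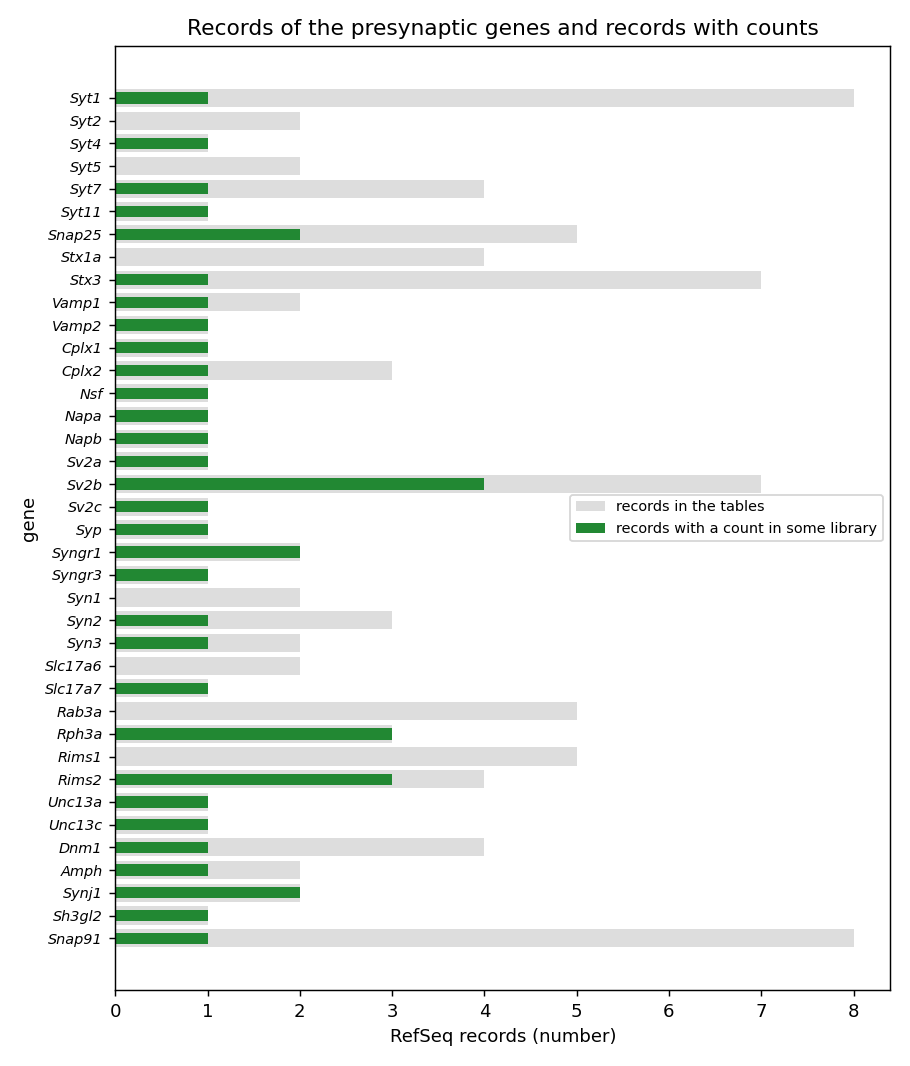
Number of RefSeq records of each of the 38 genes (grey bars) and number with a count in some library (green bars). All 15 genes with a single record had counts, while 7 genes with several records, among them Stx1a, Syn1 and Rab3a, had none.

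The libraries held 3173927 to 5107174 counts each, with the controls deeper than the shBCOR libraries. The members took 0.84 and 0.871% of all gene counts in control cells, against 0.753 and 0.863% after shBCOR. Syp, Slc17a7 and Nsf alone gave 67.9 to 74.1% of the members' counts. Bcor itself had 6 records and counts in 1 of them, at 20 and 8 counts in control cells against 0 and 13 after shBCOR, and its adjusted p was 0.991 in edgeR. The knockdown was therefore not checked by its target here. Rod markers were abundant in every library, so that the labelled tissue was seen in the counts.

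**Figure D2:**
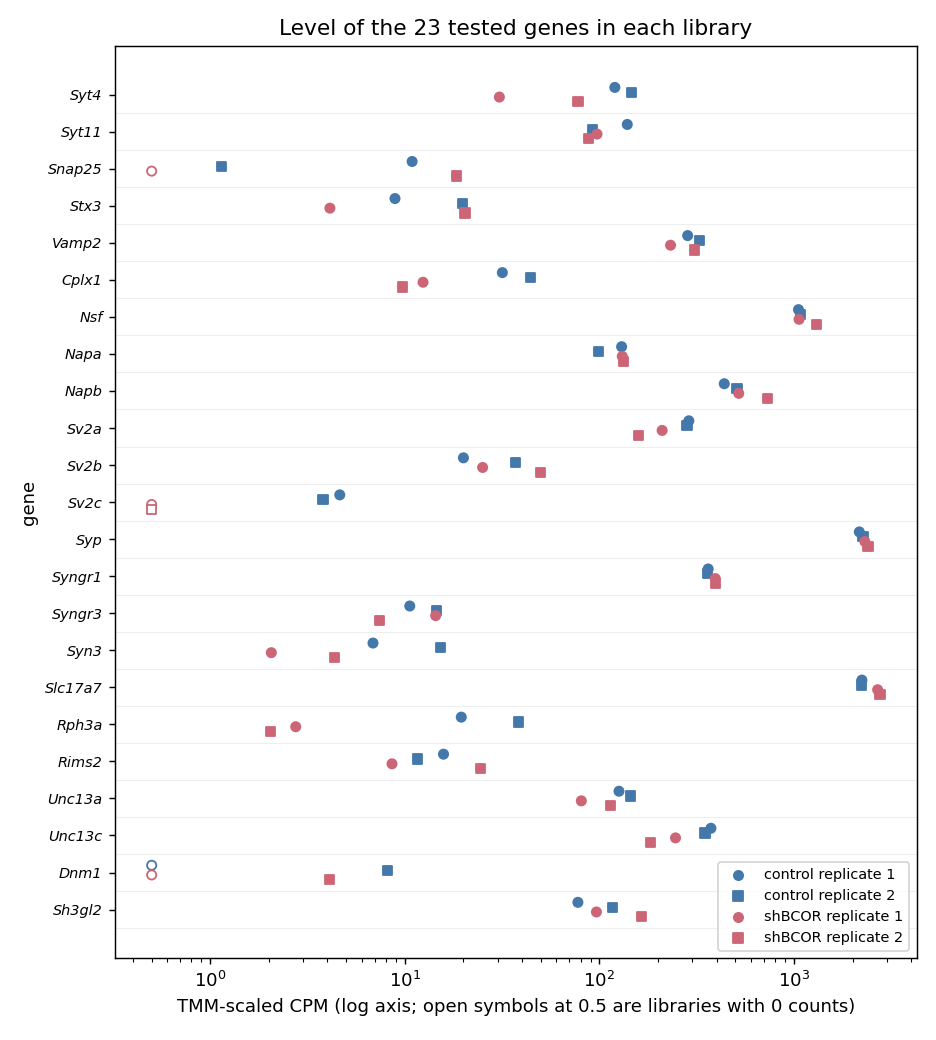
CPM of the 23 tested genes in each of the 4 libraries on a log axis. Values are not per length, so they can be read across libraries within a gene but not between genes. Rph3a, Cplx1, Syt4, Sv2a, Unc13c, Unc13a, Syn3 and Sv2c lie lower in both shBCOR libraries. Slc17a7 lies slightly higher in both, while Syp and Nsf lie close together.

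Transmitter loading was represented by Slc17a7 (NM_182993), the vesicular glutamate transporter of photoreceptors and bipolar cells. It had 2232 and 2221 CPM in the controls and 2690 and 2768 CPM in the shBCOR libraries. Both shBCOR values lay above both controls, and the controls differed by far less than the groups did. Errors are standard errors (SE) with n = 2 pools per group throughout, and the log2 fold change of Slc17a7 was 0.29 ± 0.09, 1.23-fold, with an adjusted p of 0.31 in edgeR and a 95% interval of 1.07- to 1.41-fold. DESeq2 called it (adjusted p = 0.00497), and total count scaling reduced it to 0.12. Its sister gene Slc17a6, the transporter of retinal ganglion cells, had no counts in either of its 2 records.

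Vesicle membrane proteins split into members with nearly equal values and members with lower ones. Syp (synaptophysin, NM_009305), the most widely used marker of synaptic vesicles, had 2165 and 2259 CPM in the controls and 2312 and 2398 CPM in the shBCOR libraries. The groups did not overlap, but the difference was small, at 0.09 ± 0.09 on the log2 scale (adjusted p = 0.869). The 95% interval ran from 0.923- to 1.23-fold, and with total count scaling the sign turned (−0.08). Syngr1 (synaptogyrin 1), a relative of synaptophysin, had 362 and 359 CPM against 394 and 395, a log2 fold change of 0.13 ± 0.13 (adjusted p = 0.875). It turned to −0.04 with total count scaling, and nearly all its counts came from 1 of its 2 records.

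Sv2a (NM_022030), a transporter-like glycoprotein of vesicles, had 288 and 282 CPM in the controls and 210 and 159 CPM in the shBCOR libraries. The groups were apart, with the controls within a narrow band. Its log2 fold change was −0.63 ± 0.18, 1.55-fold lower (adjusted p = 0.312 in edgeR and 0.00989 in DESeq2). Sv2c (NM_029210), of the same family, had 25 and 20 control counts and none in either shBCOR library. Set against 3 counts per library, that is at least 4.69-fold lower (adjusted p = 0.556). Sv2b had counts in 4 of its 7 records, with 20 and 37 CPM in the controls and 25.1 and 49.8 CPM in the shBCOR libraries, so the groups overlapped (log2 fold change 0.40 ± 0.50). Syngr3 (NM_011522) also overlapped, at 10.6 and 14.6 CPM against 14.4 and 7.41.

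Among the synapsins, which tether vesicles in the reserve pool, Syn3 alone could be tested. It had 6.86 and 15.2 CPM in the controls and 2.06 and 4.34 CPM in the shBCOR libraries, from 1 of its 2 records. The groups did not overlap, yet the log2 fold change of −1.77 ± 1.09 had a wide error (adjusted p = 0.691). Syn2 had 14 and 6 control counts and none in either shBCOR library, from 1 of its 3 records, and it did not pass the filter. Syn1 had no counts in its 2 records.

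Of the synaptotagmins, the calcium sensors of release, both tested members belong to the branch that does not act as a fast calcium sensor. Syt4 (NM_009308) had 120 and 146 CPM in the controls and 30.6 and 77.6 CPM in the shBCOR libraries. Both shBCOR values lay below both controls, and they differed from each other by more than the controls did. The log2 fold change was −1.29 ± 0.41, 2.44-fold lower (adjusted p = 0.363). Without shBCOR replicate 2 it was −2.13 and passed (adjusted p = 8.69e-05), and without shBCOR replicate 1 it was −0.77, so its size rested on which shBCOR library was used. Syt11 (NM_018804) had 139 and 92.4 CPM in the controls and 97.2 and 87.6 CPM in the shBCOR libraries, which overlap (log2 fold change −0.33 ± 0.26). The fast sensor Syt1 had 17 counts in control replicate 2 and 0 elsewhere, in 1 of 8 records, and Syt7, the slow sensor, had 1 count in all. Syt2 and Syt5 had none.

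The fusion SNAREs showed no separation between groups. Vamp2 (synaptobrevin 2, NM_009497), the main vesicle SNARE of neurons, had 284 and 328 CPM in the controls and 232 and 307 CPM in the shBCOR libraries. The groups overlapped, and the log2 fold change was −0.18 ± 0.18 (adjusted p = 0.878), with a 95% interval of 0.655- to 1.19-fold. Stx3, the syntaxin of ribbon synapses, had 8.9 and 19.7 CPM against 4.12 and 20.4 from 1 of 7 records. For Snap25, the partner on the plasma membrane, 2 of 5 records had counts, at 59 and 6 for the control pools against 0 and 72 for the shBCOR pools. Such values spread more within a group than between groups, and the interval of Snap25 ran from −3.60 to 4.82 on the log2 scale. Vamp1 had 6 counts in shBCOR replicate 1 alone, and Stx1a, the syntaxin of conventional synapses, had none.

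The complexins clamp and promote fusion of the assembled SNARE complex. In the retina, Cplx1 and Cplx2 are mainly placed at conventional synapses and Cplx3 and Cplx4 at ribbon synapses, without a strict division. Cplx1 (NM_007756) had 31.7 and 44.4 CPM in the controls and 12.4 and 9.7 CPM in the shBCOR libraries. The groups lay well apart, with the lowest control above both shBCOR values. The log2 fold change was −1.79 ± 0.47, 3.45-fold lower (adjusted p = 0.259 in edgeR and 0.00611 in DESeq2). Cplx2 had 15 counts in shBCOR replicate 2 and 0 in the other libraries, from 1 of 3 records. Cplx3, which like Cplx4 is not among the 38, had 613 and 537 CPM against 300 and 318 (log2 fold change −0.90 ± 0.14, adjusted p = 0.0761 in edgeR and 2.28e-09 in DESeq2). Cplx4 had 2257 and 2367 CPM against 2882 and 2260, with groups that overlapped (0.15 ± 0.13, adjusted p = 0.806).

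The 3 genes of SNARE disassembly had positive log2 fold changes, none of which passed, and Nsf overlapped between groups. Nsf (NM_008740), the ATPase of this step, had 1054 and 1076 CPM in the controls and 1061 and 1299 CPM in the shBCOR libraries. Replicate 1 of shBCOR lay below control replicate 2, and the log2 fold change was 0.15 ± 0.13 (adjusted p = 0.822). The sign turned with total count scaling (−0.02) and without shBCOR replicate 2 (−0.02). Napb (beta-SNAP, NM_019632), the neuronal adaptor of NSF, had 438 and 509 CPM against 520 and 730, both above the controls, at 0.40 ± 0.18 on the log2 scale (adjusted p = 0.558). Without shBCOR replicate 1 it was 0.63 and passed (adjusted p = 0.00282). Napa (alpha-SNAP, NM_025898), the adaptor of most cells, had 130 and 98.7 CPM against 131 and 133 (0.21 ± 0.22, adjusted p = 0.891).

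Docking and priming held the member with the largest fold among those with counts in every library. Rph3a (rabphilin), an effector of the vesicle GTPase Rab3a, had 19.5 and 38.3 CPM in the controls and 2.75 and 2.04 CPM in the shBCOR libraries. In counts this was 105 and 202 against 8 and 8. The shBCOR libraries were close to each other, while the controls differed between themselves. The log2 fold change was −3.59 ± 0.70, 12-fold lower (adjusted p = 0.127 in edgeR and 2.9e-05 in DESeq2). It has 3 records, and NM_011286 held 103 and 193 of the control counts and all 8 and 8 of the shBCOR counts, so its level as a gene is uncertain.

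Of the Munc13 proteins, which open syntaxin and prime vesicles, Unc13c (NM_001081153) had 374 and 349 CPM in the controls and 246 and 183 CPM in the shBCOR libraries. The groups did not overlap. Its log2 fold change was −0.75 ± 0.18, 1.69-fold lower (adjusted p = 0.212 in edgeR and 0.000457 in DESeq2). Unc13a (NM_001029873), the main Munc13 of brain synapses, had 126 and 144 CPM against 80.7 and 114, also without overlap (−0.47 ± 0.24, adjusted p = 0.603). The third paralog, Unc13b, which is used at photoreceptor ribbons and is not among the 38, had 809 and 764 CPM against 1065 and 1022 (0.41 ± 0.11, adjusted p = 0.262 in edgeR and 0.00181 in DESeq2), from 1 of its 4 records. The difference in response between paralogs was not tested. Rims2, an active zone scaffold of ribbon synapses, had 15.8 and 11.6 CPM against 8.59 and 24.5, which overlap. Rims1 and Rab3a had no counts in their 5 records each.

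Membrane retrieval was measured thinly, with 2 of its 5 members tested. Sh3gl2 (endophilin A1, NM_019535), which bends the membrane of the forming vesicle, had 77.5 and 117 CPM in the controls and 96.5 and 165 CPM in the shBCOR libraries, with groups that overlapped (log2 fold change 0.43 ± 0.32, adjusted p = 0.775). Dnm1 (dynamin 1), the GTPase that cuts the vesicle free, had 0 and 43 control counts against 0 and 16 after shBCOR, from 1 of 4 records. In each group it was seen in replicate 2 alone. Synj1, a phosphoinositide phosphatase, had 10 and 0 counts against 17 and 0. Amph (amphiphysin) had 13 counts in shBCOR replicate 2 alone, and Snap91, a clathrin adaptor, had 10 in control replicate 2 alone. No direction can be read for these 4 genes.

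**Figure D3:**
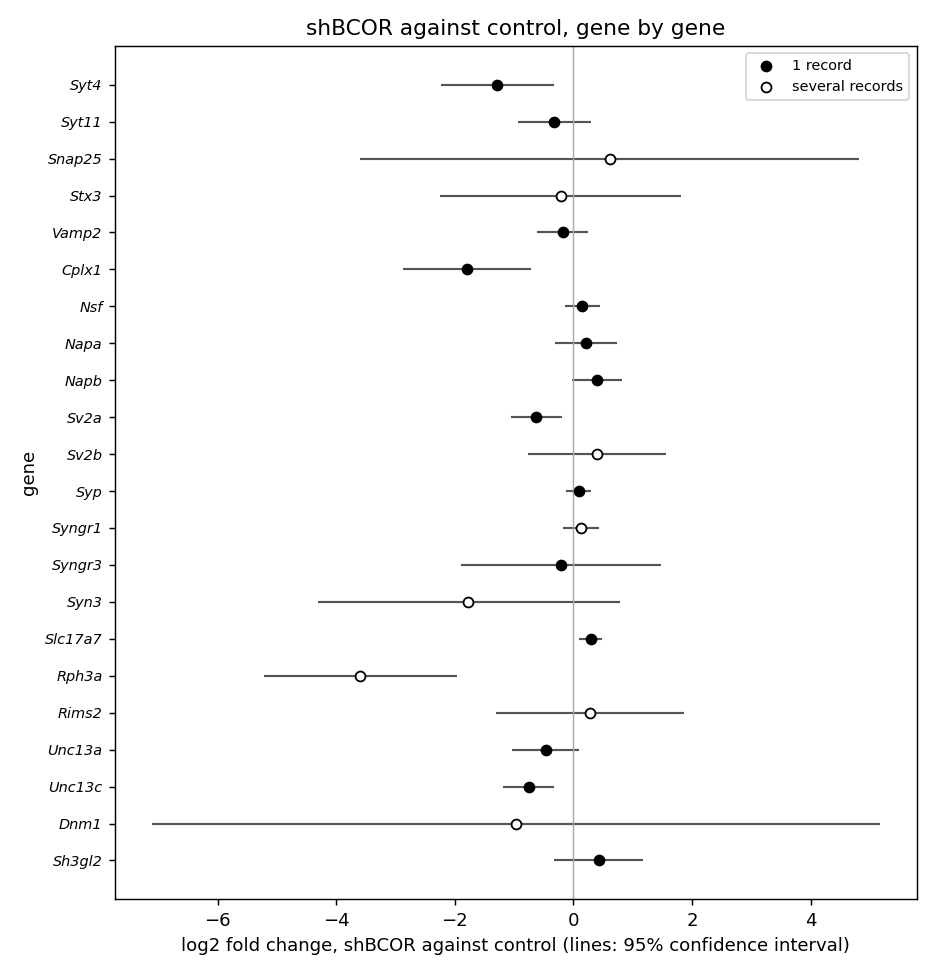
Log2 fold change of shBCOR against control (points) with the 95% confidence interval (lines), for 22 tested genes in the order of their role. Sv2c, with 0 counts in both shBCOR libraries, is left out. Intervals are narrow for Syp, Nsf and Slc17a7 and wide for genes with few counts such as Snap25 and Dnm1.

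Over the 23 tested members, 10 log2 fold changes were above 0 and 13 below, where 50.9% of all genes tested lay below, with a median of −0.21, beside −0.01 over all genes tested. In 8 members (34.8%) both shBCOR libraries lay below both controls, against 23.2% of all genes tested, and in 5 (21.7%) both lay above, against 18.7%. The 8 were Syt4, Cplx1, Sv2a, Sv2c, Syn3, Rph3a, Unc13a and Unc13c, and the 5 were Napa, Napb, Syp, Syngr1 and Slc17a7. A gene that passed the filter only through the controls had to lie lower, so these counts describe the members that could be tested and not all 38. The median moved to 0.04 without control replicate 2, to 0.01 without shBCOR replicate 1 and to −0.51 without shBCOR replicate 2. Over all alternatives run, the adjusted p ranged from 2.9e-05 to 1 for Rph3a, 8.69e-05 to 1 for Syt4, 0.000314 to 1 for Unc13c and 0.00282 to 1 for Napb. It ranged from 0.0044 to 1 for Sv2a, 0.00497 to 1 for Slc17a7 and 0.00611 to 1 for Cplx1, with the value of 1 reached when a control was left out.

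Counts relative to synaptophysin of the same library do not depend on the scaling between libraries. Per 1000 Syp counts, Slc17a7 had 1031 and 983 control counts against 1164 and 1154 after shBCOR. Unc13c had 173 and 154 against 107 and 76.2, Sv2a 133 and 125 against 90.8 and 66.4, and Syt4 55.2 and 64.8 against 13.2 and 32.4. Cplx1 had 14.6 and 19.7 against 5.35 and 4.05, and Rph3a 8.99 and 17 against 1.19 and 0.852. The groups stayed apart for each of these 6 genes. The genes were picked by their unadjusted p in edgeR, and their groups were already apart in CPM. The ratios were not tested, and they do not say which of the pair differed.

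**Figure D4:**
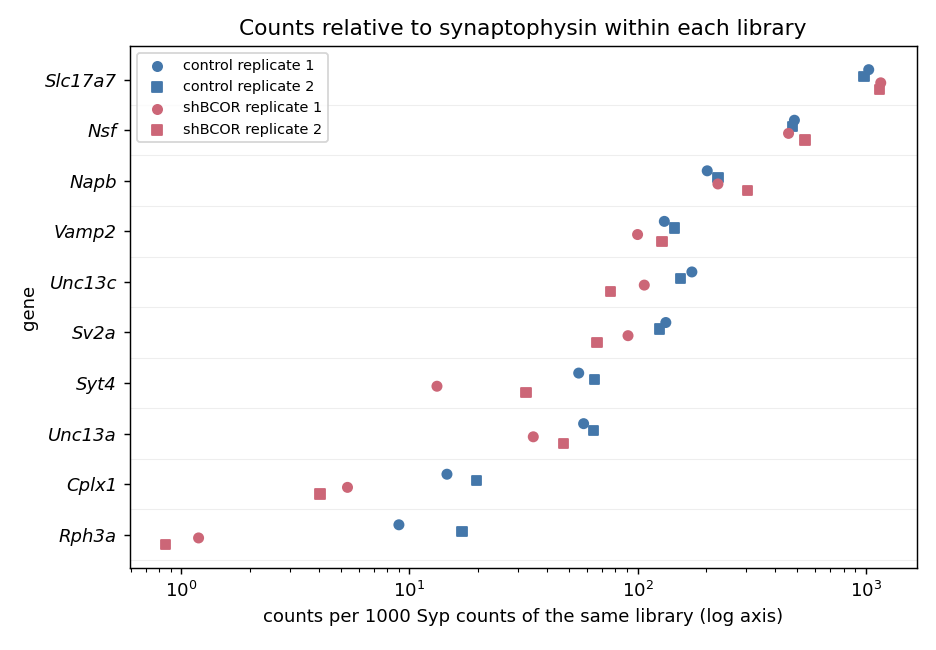
Counts of 10 genes per 1000 Syp counts of the same library, on a log axis, for the 2 control and 2 shBCOR libraries. Slc17a7 lies at 1164 and 1154 in the shBCOR libraries and at 1031 and 983 in the controls, while Unc13c, Sv2a, Syt4, Unc13a, Cplx1 and Rph3a lie lower in both shBCOR libraries.

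The other genes of the presynapse, a list of 88 further vesicle, SNARE, active zone and endocytosis genes, likewise held no gene that passed. Of these 88, 39 could be tested, and 0 passed in either direction (edgeR), while DESeq2 called 2 lower and 1 higher of 45. The DESeq2 calls were Cplx3 (adjusted p = 2.28e-09) and Sncg (0.0138) lower and Unc13b (0.00181) higher, against 2.49% and 2.31% of all genes. With an unadjusted p under 0.05 in edgeR there were 8 lower and 1 higher, against 5.09% and 4.19%. In 16 (41%) both shBCOR values were lower than either control, against 23.2% of all genes tested, and in 3 (7.69%) both were higher, against 18.7%. Some of the 16, such as Cltb with 20 and 44 control counts and none after shBCOR, passed the filter only through the controls and had to lie lower. The median log2 fold change was −0.26, beside −0.01 over all genes tested. Beside Cplx3 and Unc13b, the smallest p-values belonged to Sncg, Syt13 and Synpr. Sncg (gamma-synuclein), abundant in ganglion cells, had 28.6 and 39.9 CPM in the controls and 12.7 and 4.09 CPM in the shBCOR libraries (log2 fold change −2.04 ± 0.64, adjusted p = 0.352). Syt13, a synaptotagmin that does not bind calcium, had 52.8 and 31.9 against 1.37 and 12.5 CPM (−2.57 ± 0.84, adjusted p = 0.388). Synpr (synaptoporin), a relative of synaptophysin, had 32.1 and 47.4 against 14.4 and 19.7 CPM (−1.22 ± 0.44, adjusted p = 0.439).

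Marker lists of retinal cell types were summed in the same libraries, and 1 marker of all lists passed the test. The summed level of the 15 amacrine markers was 457 and 400 CPM in the controls and 195 and 249 CPM in the shBCOR libraries, and 6 of the 9 tested had lower values in both shBCOR libraries than in either control, where 23.2% of all genes tested did. The ganglion and horizontal markers summed to 1926 and 1899 CPM against 753 and 396. The neurofilament chain Nefl alone gave 1421 and 1390 CPM of these sums, against 575 and 284. Of the 11 tested, 8 lay below and 3 overlapped, and 1, the neurofilament chain Nefm, passed as lower. Bipolar markers summed to 2013 and 1956 CPM against 1151 and 1662, with 8 of 14 tested below. Rod markers summed to 196839 and 198313 CPM against 261708 and 221344, with 11 of 14 tested above both controls, where 18.7% of all genes tested lay so. Cone markers summed to 984 and 878 CPM against 970 and 588, which overlap, as did 7 of the 8 tested. Müller glia markers summed to 5314 and 5139 CPM against 3673 and 4550. Glul alone gave 3853 and 3742 CPM of these sums, against 2397 and 3079. Of the 8 Müller glia markers tested, 3 lay below and 5 overlapped. Markers of microglia and macrophages summed to 16.3 and 21.8 CPM against 4.47 and 6.38. Vascular and pericyte markers summed to 449 and 441 CPM against 380 and 435. Kdr alone gave 388 and 375 CPM of these sums, against 333 and 378. Astrocyte and oligodendrocyte markers summed to 45.4 and 41.2 CPM against 24 and 31.2. Markers of the retinal pigment epithelium stayed at 0 to 1.9 CPM in 3 libraries and reached 19.7 CPM in shBCOR replicate 2. Of the neuronal lists, among others Pax6, Tfap2a, Calb2, Rbpms and Nrl, all genes with several records, had no counts in any library. In these pools, fewer cells of a type, less RNA per cell and a difference in what the sorts let through cannot be told apart. The labels do not say which cell types were fluorescent, so a marker value need not come from electroporated cells. The part of the cell make-up in the values of Slc17a7, Rph3a, Cplx1, Syt4, Sv2a and Unc13c was not tested.

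**Figure D5:**
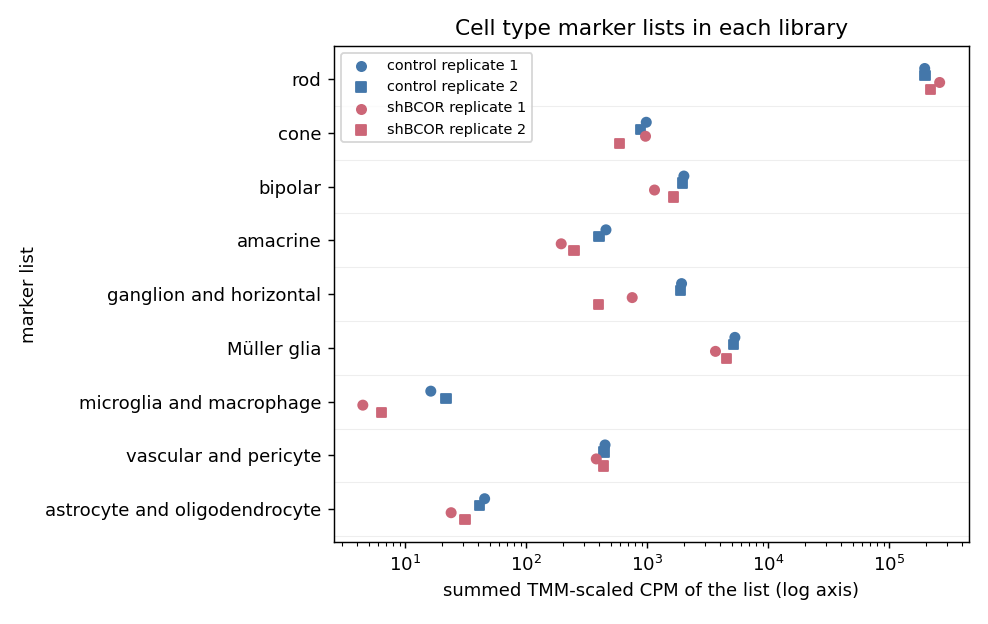
Summed CPM of 9 cell type marker lists in each library, on a log axis. The rod list lies higher in both shBCOR libraries and the cone list overlaps. All other lists shown lie lower in both shBCOR libraries, those of glia, microglia and vessels included.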

How the data were processed

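The 4 RNA libraries (2 control, 2 shBCOR) were used; the 10 peak lists of the series were not used here. Their deposited values are raw read counts for each RefSeq record, obtained with HTSeq by the authors according to the labels. Trimmomatic, TopHat, DESeq2 and the builds mm10 and mm9 stand in the submitters' processing notes with neither versions nor roles. How strand, overlapping genes and reads shared by several records were handled is not given in the sources used here. Of 45895 records, 45749 (99.7%) were matched to a symbol through RefSeq's gene table of GRCm38.p6, and records were summed per gene. Unmatched records (0.465% of counts) were left out. Libraries were grouped by title, although the table for shBCOR replicate 2 is numbered differently from its title.

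The test was edgeR 4.0.16 under R 4.3.3 (TMM, filterByExpr by group, robust quasi-likelihood fit, Benjamini-Hochberg over 7773 genes, threshold 0.05). The standard error is the log2 fold change divided by the square root of F, and the common biological coefficient of variation was 0.545. CPM were scaled by TMM. Alternatives were DESeq2 1.42.0, other scalings and filters, single records, equal depth, a replicate block and leaving out each library. The members, gene lists, motifs and tests were chosen with earlier results of these data known. Values in every library are given for members with the smallest p, the highest level in each role, or counts below the filter. The labels do not say that a replicate number marks a shared batch, so the numbers were not taken as pairs. Deviations of same-numbered libraries had a correlation of −0.008. With 2 libraries per group, this does not settle whether they shared a batch.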

Additional observations from a re-analysis of the deposited data

How the results depend on the processing

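The number of members called was 0 under most settings, but 5 with DESeq2 (Cplx1, Rph3a, Sv2a and Unc13c lower, Slc17a7 higher) and 3 with no filter on low counts (Rph3a, Syt4 and Unc13c, all lower). Leaving out 1 library gave 0 to 6 calls, with 6 without shBCOR replicate 1 and 3 without shBCOR replicate 2, where the lone shBCOR library is assumed to vary like the controls. Over the whole table the calls numbered 7, against 394 with DESeq2, 205 with no filter on low counts, 30 among genes with 1 record, 29 with total count scaling and 23 with the replicate block, and 4 to 446 when 1 library was left out (4 without control replicate 1, 446 without shBCOR replicate 1, 400 without shBCOR replicate 2). With total count scaling 3 were higher and 26 lower, against 3 and 4, and the median of all genes moved from −0.01 to −0.19. For the 88 further presynaptic genes the calls were 3 with DESeq2, 2 with no filter, 1 with total count scaling, 1 among genes with 1 record, and 0 to 5 when 1 library was left out. The replicate block changed no member's call.

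Of the 23 tested members, 12 kept their sign under every setting run, Rph3a, Cplx1, Syt4, Sv2a, Unc13c and Slc17a7 among them; their log2 fold changes ranged from −4.00 to −3.01, −2.02 to −1.53, −2.13 to −0.77, −0.84 to −0.45, −0.98 to −0.57 and 0.12 to 0.31. Beside leaving out libraries, the sign turned for Snap25 with the replicate block (−0.41) and for Nsf, Syp and Syngr1 with total count scaling (−0.02, −0.08 and −0.04). When 1 library was left out, values ranged from −7.79 to 2.98 for Snap25 (below 0 without control replicate 2 at −0.24 and without shBCOR replicate 2), −1.80 to 0.51 for Stx3, −7.21 to 6.09 for Dnm1, −0.68 to 0.84 for Rims2, −0.76 to 0.19 for Syngr3, −0.19 to 0.90 for Sv2b, −0.02 to 0.76 for Sh3gl2, −0.02 to 0.29 for Nsf and −0.41 to 0.01 for Vamp2. The cause of these changes was not tested.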
